A study of Rattus norvegicus with 9 samples.

Results

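Aquaporins are membrane channels that let water, and in some members glycerol or other small solutes, cross cells along their gradients. In rat liver 7 family members were examined, Aqp1, Aqp3, Aqp4, Aqp7, Aqp8, Aqp9 and Aqp11. Their probe sets were taken wherever the array annotation gave exactly 1 of these symbols. All 7 genes had at least 1 probe set, with 10 probe sets among the 31042 on the array that were not controls. In genes, these are 7 of 14217 with a symbol of their own. The family was chosen by the Aqp11 signal, which was lower in the model livers. Values of all members in model against control are therefore a description, without a test.

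The livers came from 9 Wistar rats labelled male and weighing 180 to 220 g. Of 36 rats divided at random into a control, a model and a drug group of 12 each, 3 per group were arrayed. The sources used here give no age, no procedure for the model, and neither dose nor identity of 7-P, the agent named for the drug group. The labels do not say whether the drug rats also underwent the model procedure. RNA was measured on a one-colour Affymetrix array, 1 array per rat.

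In hepatocytes, Aqp8 sits in the canalicular membrane and in intracellular vesicles, where it passes water into bile. Aqp9 sits in the sinusoidal membrane and takes up glycerol for glucose synthesis. Aqp11 is an intracellular channel of the endoplasmic reticulum, and its loss in mice gives vacuolated hepatocytes and cystic kidneys. Aqp1 is the water channel of bile duct cells, vascular endothelium and red cells. Aqp3 and Aqp7 are further glycerol channels, the latter best known from adipocytes, and Aqp4 is the main water channel of astrocytes.

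Values below are log2 signals after quantile normalization, which gives every array the same distribution of signals. Differences are log2 differences with the standard error (SE) of a limma fit over all arrays. The threshold was an adjusted p under 0.05 (Benjamini-Hochberg) across the 18625 probe sets whose mean lay at or above the 40th percentile, a log2 signal of 2.82. Above that filter lay 6 member probe sets from 5 genes. The 4 others, 1 for Aqp3 and 3 for Aqp4, lay below it. With 3 arrays in a group, their number limits the precision of every value.

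Before normalization the trimmed mean signal of the arrays ranged from 33.6 to 81.1. The Gapdh ratio, its 3' over its 5' signal, which is higher when less of the 5' part is measured, was between 1.52 and 3.14 in control arrays and between 4.09 and 12.7 in model arrays. In the drug arrays it was 1.31 in replicate 1, 9.20 in replicate 2 and 8.71 in replicate 3. Control 2 and drug 3 had a low signal of Xist, the X-linked RNA of female cells (2.65 and 3.05, against 8.06 to 10.9 in the other 7 arrays). They also had a high signal of the Y-linked Eif2s3y (6.99 and 7.17, against at most 2.53). All 9 rats were labelled male, and these were the only arrays whose signals went with that label. The other 7 arrays, every model array among them, had high Xist and low Eif2s3y. All 11 hepatocyte markers on the array that had been listed, Alb, Ttr and Apoa1 among them, lay above the filter. Their summed normalized signal was between 47542 and 48144 in control, 40406 and 47835 in model, and 45782 and 48823 in drug livers.

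The sequences just upstream of Aqp11 and Aqp8 are shown because these were the members whose model arrays lay apart from every control array. RefSeq promoter windows on build GRCr8 were matched by symbol for 6 of the 7 members. Each printed stretch holds bases before the transcription start and ends where the annotated gene begins. The 250 bases before Aqp11 lie on the minus strand at chr1:161467919-161468168, and the 121 bases before Aqp8 on the plus strand at chr1:187424193-187424313. Capitals mark matches, on both strands, to the TATA box (TATAAA), the GC box (GGGCGG), the CCAAT box and the E-box (CACGTG).
Aqp11: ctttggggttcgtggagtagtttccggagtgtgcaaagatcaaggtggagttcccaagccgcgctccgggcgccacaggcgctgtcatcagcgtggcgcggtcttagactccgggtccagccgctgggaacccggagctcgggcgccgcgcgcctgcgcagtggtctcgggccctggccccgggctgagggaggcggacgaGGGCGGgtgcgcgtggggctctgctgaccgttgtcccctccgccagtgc
Aqp8: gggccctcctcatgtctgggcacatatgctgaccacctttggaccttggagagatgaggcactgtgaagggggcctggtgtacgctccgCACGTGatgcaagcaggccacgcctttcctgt
The Aqp11 stretch is rich in G and C, 70.8% of its bases, with 28 CpG dinucleotides. The median of all 33469 promoter stretches of 250 bases was 51.2% and 5 CpG. It holds 1 GC box, 49 bases before the start, a motif found in 30.5% of all stretches. The 250-base stretches of Aqp1, Aqp3 and Aqp4 also hold that motif. Aqp8 is at 53.6% G and C over its 250 bases and 5 CpG. It has 2 CACGTG matches, 161 and 98 bases before the start, and the printed bases include the first of them. That motif occurs in 5.59% of all stretches. Upstream of Aqp1 and Aqp3 there was a TATAAA match, 30 and 38 bases before the start, a motif held by 12.9% of all stretches. The stretches of Aqp4 and Aqp9 held a CCAAT match, as did 34% of all. Both Aqp4 matches lie inside the annotated gene, which begins after 58 bases of its 250-base stretch. These matches are descriptions of the letters only. Aqp7 and Aqp3 are adjacent coding genes on rat chromosome 5.

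Among the 10 member probe sets, Aqp11 had the widest gap between control and model arrays. Its log2 signal was 5.04, 5.01 and 4.98 in control 1, 2 and 3, and 3.80, 3.74 and 3.74 in model 1, 2 and 3. The drug arrays were at 5.42, 3.87 and 3.53. Every model array thus lay below every control array, with a gap of 1.17 between the nearest arrays, while the drug group split, replicate 1 above all controls and replicates 2 and 3 near the model arrays. Group means were 5.01 ± 0.031 in control, 3.76 ± 0.039 in model and 4.27 ± 1.01 in drug livers (SD, n = 3). The order of the means was control, drug, model, and the drug group overlapped both neighbours. Model against control was -1.25 (SE 0.447), a 2.38-fold lower signal. The SE is pooled over all groups and carries the spread of the drug arrays. The deposited signals before any normalization were 52.9, 21.5 and 44.4 in control, 13.5, 11.3 and 12.6 in model, and 57.0, 12.6 and 9.68 in drug arrays. They showed the same split.

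The p and interval of drug against model do not allow for the choice of the family by low Aqp11 in the model arrays. This difference was 0.51 (SE 0.447) for Aqp11, with a limma adjusted p of 0.998, and the 95% interval ran from -0.48 to 1.51. It rested on drug 1. Without that array the difference was -0.06. Drug against control was -0.74 (SE 0.447), with a limma adjusted p of 0.716, and -1.29 without drug 1. Drug 1 was the array with the lowest Gapdh ratio. With a term for the log2 Gapdh ratio, model against control of Aqp11 was -0.49. Drug against model was then 0.17, and drug against control -0.31. Its slope within groups was -0.45 (SE 0.126) log2 units per doubling of the ratio. That pooled slope, and so the values with the Gapdh term, came mostly from drug 1 beside drug 2 and 3. Control arrays of Aqp11 spanned only 0.06 log2 units over ratios of 1.52 to 3.14. Model arrays spanned 0.07 over ratios of 4.09 to 12.7. The part of the Gapdh ratio in these differences was not tested further. Model against control was between -1.27 and -1.23 when single arrays were left out, and -1.26 without control 2 and drug 3. This range is a description, since the family was chosen by low Aqp11 in the model arrays. Leaving out a drug array can change it only through the normalization.

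After normalization Aqp8, the canalicular water channel, had model arrays entirely below the controls, and drug arrays entirely above the model arrays. It stood at 8.55, 8.96 and 8.68 in the control arrays, at 8.07, 7.82 and 7.73 in the model arrays, and at 8.60, 8.37 and 8.29 in the drug arrays. Only drug 1 reached into the control range, above control 1. Means were 8.73 ± 0.208 in control, 7.88 ± 0.175 in model and 8.42 ± 0.164 in drug livers (SD, n = 3). The order was control, drug, model. Of these neighbours, control and drug overlapped and drug and model did not. Model against control was -0.86 (SE 0.213), a 1.81-fold lower signal. Drug against model was 0.54 (SE 0.213), with a 95% interval of 0.07 to 1.02. The unadjusted limma p was 0.0286 and the limma adjusted p 0.998, so the difference did not pass. It shares the model arrays by which the family was chosen, and neither p nor interval allows for that choice. Drug against control was -0.31 (SE 0.213), with a limma adjusted p of 0.735.

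The Aqp8 value in drug against model was above 0 under all 22 alternatives. A change of filter or trend, the replicate block, or a fit of only the groups compared cannot alter this value. Those settings therefore add nothing to the count. Leaving out single arrays gave 0.45 to 0.64, leaving out control 2 and drug 3 gave 0.61, and the Gapdh term gave 0.48. The adjusted p over the alternatives lay between 0.482 and 1. Its slope on the log2 Gapdh ratio within groups was -0.08 (SE 0.065). With the Gapdh term, Aqp8 model against control was -0.72, and it was -1.56 without normalization, a setting whose median over all probe sets was -0.40. In deposited units, model arrays read 260, 169 and 174, drug arrays 630, 228 and 217, and control arrays 726, 425 and 638. There model 1 lay above drug 2 and drug 3, so drug and model arrays overlapped before normalization.

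**Figure D1:**
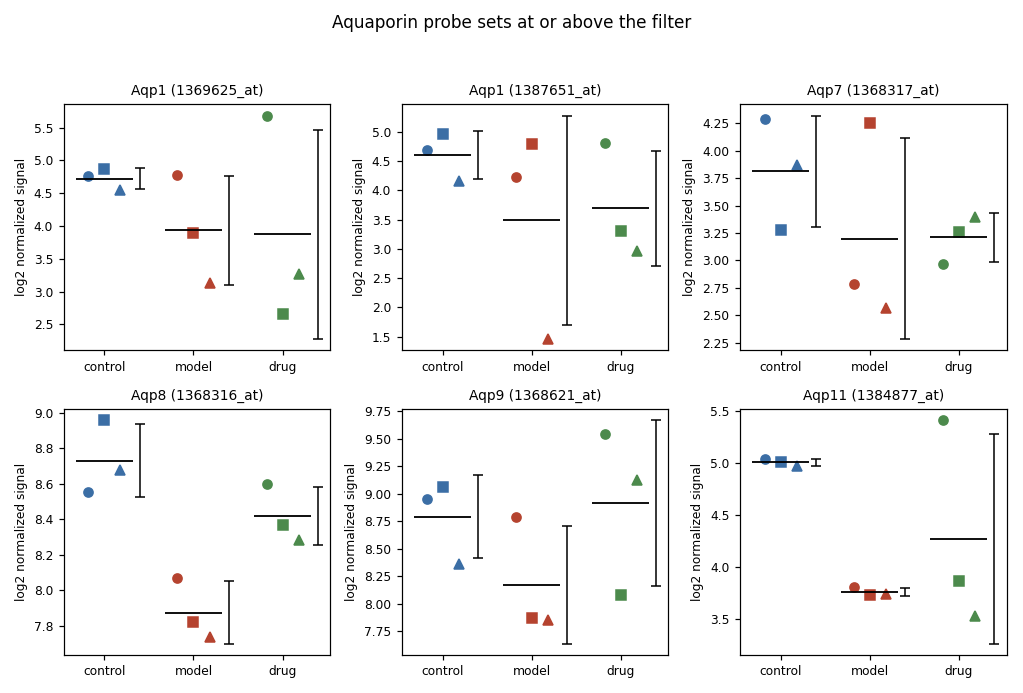
Log2 normalized signal (y axis) of the 6 aquaporin probe sets above the filter in control, model and drug livers (x axis). Circles, squares and triangles are replicates 1, 2 and 3, lines are group means and bars show the SD of 3 arrays. Control and model arrays of Aqp11 form tight separate groups (4.98 to 5.04 against 3.74 to 3.80) while its drug arrays span 3.53 to 5.42.

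Aqp9, the hepatocyte glycerol channel, overlapped between all groups. Its control arrays read 8.95, 9.06 and 8.36, its model arrays 8.79, 7.87 and 7.86, and its drug arrays 9.54, 8.08 and 9.13. Model 1 lay among the controls, and drug 2 lay near model 2 and 3. Means were 8.79 ± 0.378, 8.17 ± 0.534 and 8.91 ± 0.754 in control, model and drug livers (SD, n = 3). Model against control was -0.62 (SE 0.404). It was 0.04 with the Gapdh term. Drug against model was 0.74 (SE 0.404), with an unadjusted limma p of 0.0963 and a limma adjusted p of 0.998. Drug against control was 0.12 (SE 0.404, limma adjusted p = 0.942). The direction against control turned without drug 1 (-0.19) and without normalization (-0.42).

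Aqp1, the channel of bile ducts, endothelium and red cells, was read by a pair of probe sets that differed most in model 3. Probe set 1369625_at gave 4.76, 4.86 and 4.55 in control, 4.78, 3.90 and 3.12 in model, and 5.68, 2.66 and 3.27 in drug arrays. Probe set 1387651_at gave 4.69, 4.97 and 4.16 in control, 4.22, 4.80 and 1.45 in model, and 4.82, 3.31 and 2.95 in drug arrays. The control arrays were close together in 1369625_at (range 0.32) and less so in 1387651_at (range 0.81). In both, model 3, drug 2 and drug 3 were low. Model against control was -0.79 (SE 0.711) and -1.12 (SE 0.814), and the groups overlapped. Without model 3 these were -0.38 and -0.10, and without model 1 the former was -1.21. The latter was -1.78 without model 2. Drug against model was -0.06 and 0.20, and drug against control -0.85 and -0.92, with limma adjusted p between 0.769 and 0.998. Drug against control of 1369625_at was -1.74 without drug 1 and -0.25 without drug 2, and that of 1387651_at -1.46 without drug 1 and -0.55 without drug 3. Drug against model turned in sign for both when single arrays were left out. With the Gapdh term, 1369625_at was at 0.65 in model against control and 1387651_at at -0.27. The slope of 1369625_at on the log2 Gapdh ratio within groups was -0.84 (SE 0.192), the steepest of the 6 probe sets. That of Aqp9 was -0.39 (SE 0.158).

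In whole liver RNA, fewer cells of a type and less RNA per cell cannot be told apart. Markers of the cells known to hold Aqp1 were therefore set beside it. All 12 endothelial markers on the array, Pecam1, Kdr and Stab2 among them, passed the filter, and 6 were higher and 6 lower in model than in control livers. Their summed normalized signal was 904 to 1062 in control, 1022 to 1457 in model and 807 to 875 in drug livers. Of 9 bile duct cell markers, 5 passed the filter, and Krt7, Cftr, Cldn4 and Sctr were below it. The summed signal of the 9 was 294 to 361 in control, 208 to 295 in model and 265 to 327 in drug livers, and 4 of the 5 were lower in model than in control. Erythroid markers, of which 5 of 8 passed, summed to 1215 to 2762, 467 to 2330 and 386 to 2077. Hbb alone made up most of each erythroid sum. The part of these markers in the Aqp1 values was not tested.

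**Figure D2:**
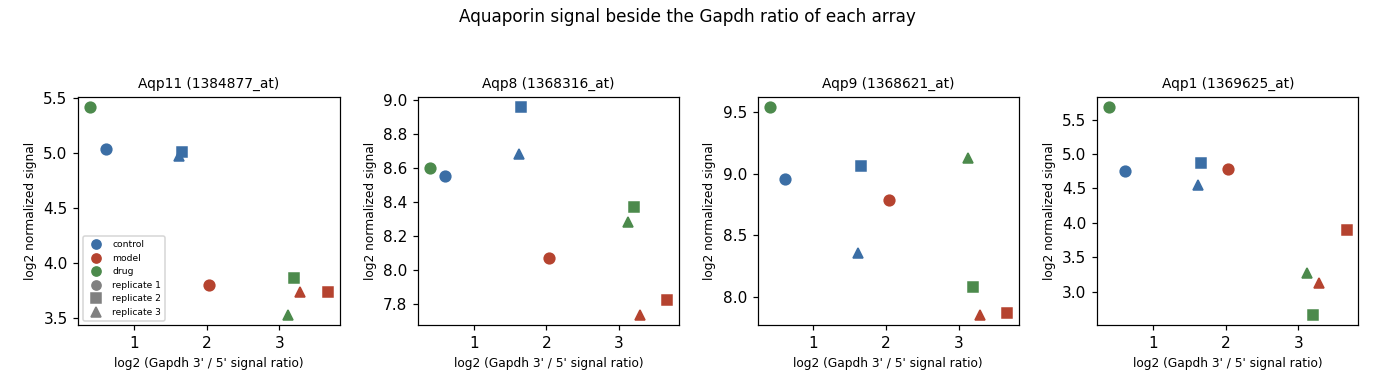
Log2 normalized signal (y axis) of Aqp11, Aqp8, Aqp9 and one Aqp1 probe set against the log2 ratio of 3' to 5' Gapdh signal (x axis) on the 9 arrays, coloured by group, with symbols for replicates. Drug 1, at the lowest ratio of 1.31, has the highest Aqp11, Aqp9 and Aqp1 signal, while the Aqp8 signal of all 3 drug arrays lies above that of the model arrays.

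Aqp7, the adipocyte glycerol channel, was near the filter and showed no separation of groups. It read 4.29, 3.28 and 3.87 in control, 2.78, 4.25 and 2.57 in model, and 2.97, 3.26 and 3.40 in drug arrays. Model 2 lay close to the highest control array, and the other model arrays were under the filter. Model against control was -0.61 (SE 0.532), drug against model 0.01 (SE 0.532) and drug against control -0.60 (SE 0.532), the latter pair with limma adjusted p of 0.998 and 0.778. Of 7 adipocyte markers 3 passed the filter, and Adipoq, Plin1, Fabp4 and Lep were below it. The summed signal of the 7 was 292 to 299 in control, 267 to 336 in model and 205 to 267 in drug livers. Most of it came from Cidec and Cfd.

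Aqp3 and Aqp4 were too dim to be compared. The Aqp3 signal lay between -1.73 and 1.12 on the log2 scale over the 9 arrays, which corresponds to deposited signals of 0.264 to 1.97. Of the 3 Aqp4 probe sets, 1368981_at lay between -0.67 and 2.51, 1372190_at between -2.51 and 3.03, and 1387397_at between -1.19 and 3.07. The lowest array was drug 1 for 1368981_at, drug 2 for 1372190_at and control 2 for 1387397_at. Only drug 3 in 1372190_at and model 1 in 1387397_at exceeded the filter value of 2.82. Of 10 astrocyte and muscle markers, 5 passed the filter. Among these, Gfap, the astrocyte filament protein, had a control mean of 3.98. The summed signal of the list is not set beside Aqp4, since Myh1 (control mean 10.16) and Aldh1l1 (9.94), an enzyme that hepatocytes also express, carry most of it.

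**Figure D3:**
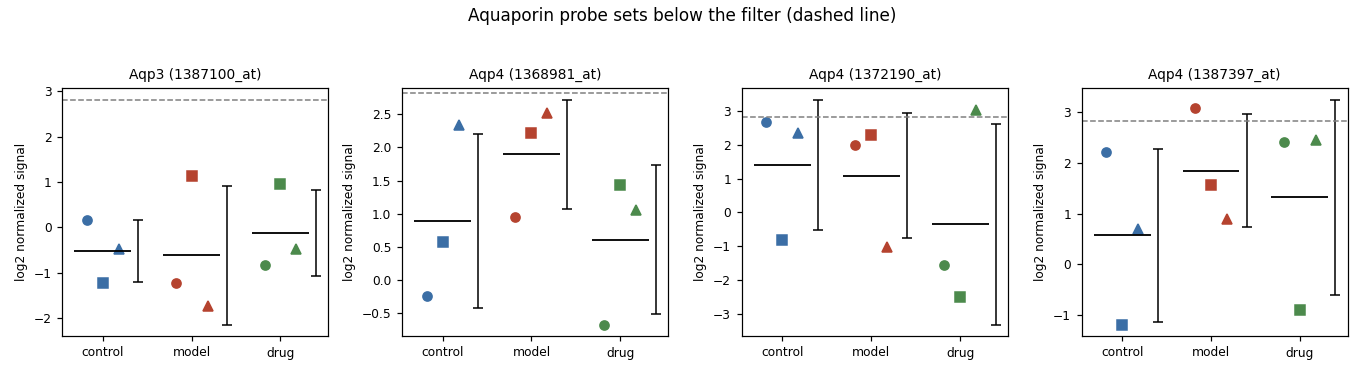
Log2 normalized signal (y axis) of the Aqp3 probe set and the 3 Aqp4 probe sets in each group (x axis), with replicates as symbols, group means as lines and the SD of 3 arrays as bars. The dashed line is the filter at 2.82, which 1 array each of 1372190_at and 1387397_at exceeds.

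A further 5 aquaporin genes were on the array, and only Aqp12a, a gene known from pancreas, passed the filter. It read 4.41, 4.20 and 3.92 in control, 3.17, 4.07 and 2.91 in model, and 4.22, 4.20 and 4.07 in drug arrays. Drug against model was 0.78 (SE 0.378), without overlap but with a gap of only 0.005, and a limma adjusted p of 0.998. Model against control was -0.79 (SE 0.378) with a limma adjusted p of 0.426, and drug against control -0.01 with a limma adjusted p of 0.995. Aqp2, Aqp5, Aqp6 and Mip, the lens aquaporin, had mean signals below the filter.

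Across the family, model livers were lower in all 6 member probe sets above the filter, and in 8 of all 10. The Gapdh ratio was also higher in every model array than in any control array, and with the Gapdh term Aqp1 1369625_at (0.65) and Aqp9 (0.04) were above 0. The 10 include the 4 probe sets of Aqp3 and Aqp4, so their counts and medians carry values too dim to be compared. The median over the 10 was -0.61, and -0.20 without model 3. Over all 31042 probe sets it was 0.01, and over the 18625 above the filter 0.02, of which 48.9% were lower. Model and control arrays did not overlap in 2 of the 6, Aqp8 and Aqp11, and 10.9% of the 18625 were lower without overlap. In drug against model, 6 of 10, and 5 of the 6 above the filter, were higher. The median of the 10 was 0.11 beside -0.02 over all. It was below 0 without model 3 (-0.39) and without drug 1 (-0.21). Of the 6 above the filter only Aqp8 did not overlap, while 3.35% of all probe sets were higher without overlap. Of the 6, 1, again Aqp8, had an unadjusted limma p under 0.05, as had 3.28% of all (610 probe sets), and 0 of 6 passed at an adjusted p under 0.05, as did 0% of all. In drug against control, 7 of 10, and 5 of the 6 above the filter, were lower. The median of the 10 was -0.46 beside -0.02. All 6 overlapped, where 6.49% of all were lower and 6.05% higher without overlap. Of the 6, 0 had an unadjusted limma p under 0.05, as had 7.22% of all (1345 probe sets), and 0 passed after adjustment, as did 0% of all. Drug against model shares the model arrays with the contrast that chose the set, so the values are given side by side only.

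**Figure D4:**
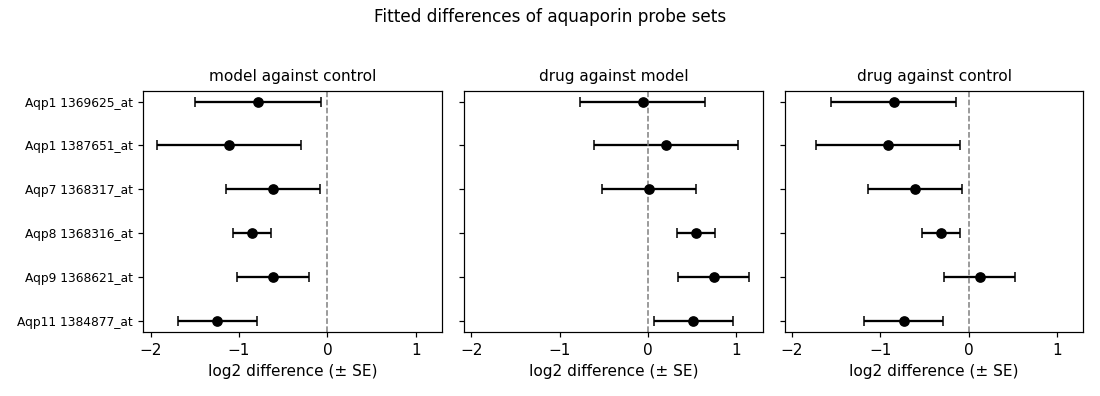
Fitted log2 differences (x axis, points) with their SE (bars) for the 6 aquaporin probe sets above the filter (y axis), with 1 panel for each comparison of groups. All 6 points lie below 0 in model against control, from -0.61 to -1.25, and in drug against model Aqp9 (0.74), Aqp8 (0.54) and Aqp11 (0.51) lie highest.

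Genes whose log2 signals over the 9 arrays were most like a member's were picked as the 3 with the highest Pearson correlation. They are a description, since they are the extreme of all named probe sets and share arrays, groups and the Gapdh ratio with it. For Aqp11 they were Tom1, an endosomal sorting adaptor (r = 0.98, n = 9), Actr1b, a dynactin subunit (0.97), and Galm, the galactose mutarotase (0.97). For Aqp8 they were Daglb, a diacylglycerol lipase (0.96), the deubiquitinase Usp5 (0.96) and Leprotl1 (0.94). Aqp9 was most like Slc29a1, a nucleoside transporter (0.97), the scaffold Homer1 (0.95) and Frmd4b (0.95). For Aqp1 they were Mrps33, Ech1 and Chmp3 with 1369625_at (0.97 to 0.98), and Sprn, Timm21 and Ccny with 1387651_at (0.97 to 0.98). Aqp7 was most like Cln3 (0.92), Samd13 (0.90) and Fbn1 (0.87). No gene appeared under more than 1 probe set.

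Glycerol enters hepatocytes through Aqp9 and is then phosphorylated and turned into glucose or lipid. Lists beside the family hold genes that share its routes. Of 16 measured genes of glycerol handling, 11 were lower in model than in control livers, with a median of -0.30, and 0 passed the limma test. The gluconeogenic enzyme Pck1 was at 0.50 (SE 0.224) in model against control, and at -0.70 (SE 0.224) in drug against model, which share the model arrays. Unnormalized, the former was -0.15. The hormone-sensitive lipase Lipe was at -1.04 (SE 0.458) in model against control, and the lipid droplet protein Pnpla3 at 1.82 (SE 0.871) in drug against model. Against control, drug livers had the monoglyceride lipase Mgll at -0.98 (SE 0.447) and the phosphatidate phosphatase Lpin2 at 0.69 (SE 0.265).

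Bile flow is driven by solutes pumped out by canalicular transporters, with water following through channels such as Aqp8. Of 16 bile transport genes 9 were higher and 7 lower in model against control (median 0.01), with 0 past the limma test. The basolateral export pump Abcc3 was at 2.43 (SE 0.788) in model and 2.39 (SE 0.788) in drug against control livers, with overlap of the groups in both. Its control mean of 2.78 lay below the filter value, so the probe set passed through the other groups and neither value is a precise difference. Slc4a2, the anion exchanger that secretes bicarbonate into bile, was at -0.88 (SE 0.327) in model against control, every model array below every control array as for Aqp8. It is also on the bile duct marker list. In drug against model the efflux pump Abcg2 was at -0.97 (SE 0.386) and the bicarbonate cotransporter Slc4a4 at -0.65 (SE 0.348). Slc22a7, an organic anion transporter, was at -0.28 (SE 0.221) in drug against control.

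Of 13 genes of ion transport and cell volume, 6 were higher and 7 lower in model against control, and 9 were lower in drug against model. Nfat5, the transcription factor that answers osmotic stress, was at 1.24 (SE 0.508) in model and 0.98 (SE 0.508) in drug against control. Slc5a3, which imports inositol, was at 0.62 (SE 0.383) in model against control. Slc6a6, the taurine transporter, was at -0.96 (SE 0.534) and the chloride exchanger Clcn3 at -0.72 (SE 0.496) in drug against model. The cotransporter Slc12a2 was at -0.58 (SE 0.289) in drug against control.

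Aqp8 and Aqp11 have also been described as passing hydrogen peroxide, and Aqp8 ammonia. Of 16 genes that handle peroxide or ammonia, 12 were lower in model than in control livers (median -0.40), as were 48.9% of all probe sets. In drug against model 15 were higher (median 0.09), as were 47.9% of all. The mean log2 signal of the 16 was 10.04, 9.39 and 9.69 in drug 1, 2 and 3. It was 9.81, 9.57 and 9.33 in model 1, 2 and 3. Drug 1, the highest of these, had the lowest Gapdh ratio, whose part was not tested. The peroxiredoxins Prdx4, which works in the endoplasmic reticulum, and Prdx6 were at -1.41 (SE 0.447) and -1.01 (SE 0.348) in model against control. Drug livers against model had Prdx4 at 0.47 (SE 0.447) and the urate oxidase Uox at 0.24 (SE 0.285). Drug livers stood at -0.79 (SE 0.348) for Prdx6 and 0.75 (SE 0.270) for the glutamine synthetase Glul, against control.

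The endoplasmic reticulum holds Aqp11, and 24 of its folding genes were measured. In model against control, 13 were higher and 11 lower (median 0.09). Ero1b, an oxidase of disulphide formation, was at 0.75 (SE 0.285) and the chaperone Hsp90b1 at 0.58 (SE 0.228), the latter at -0.26 unnormalized. In drug against model 16 were lower, while Herpud1, a degradation factor, was at 0.76 (SE 0.266) and the cochaperone Sdf2l1 at -0.60 (SE 0.327). Ero1b was at 0.91 (SE 0.285) and the chaperone Hyou1 at -1.62 (SE 0.755) in drug against control. Of 15 receptors and factors reported to act on aquaporin genes, 9 were higher in model against control (median 0.23) and 10 lower in drug against model (median -0.31). The insulin receptor Insr was at 0.82 (SE 0.276) in model against control and -0.65 (SE 0.276) in drug against model. Both comparisons share the model arrays. The glucocorticoid receptor Nr3c1 was at 0.53 (SE 0.286) and -0.44 (SE 0.286) in the same comparisons, the former at -0.13 unnormalized. In drug against control Irs2, an insulin receptor substrate, was at -1.34 (SE 0.710) and the growth hormone receptor Ghr at -0.70 (SE 0.417).

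Over these 6 lists together, 100 genes were measured and 0 passed the limma test in any comparison. At an unadjusted limma p under 0.05 there were 15 of 100 in model against control, where 12.1% of all probe sets had one (2245 probe sets), 4 for drug against model, where 3.28% had one, and 5 for drug against control, where 7.22% had one. Genes named from the lists had limma adjusted p of 0.384 to 0.502 (model against control), 0.998 (drug against model) and 0.677 to 0.756 (drug against control). Markers of macrophages and neutrophils are set beside them. Of 11 macrophage markers 7 were higher in model livers than in controls, with summed signals of 1491 to 2312 in control, 2002 to 3463 in model and 1945 to 2736 in drug livers. The 5 neutrophil markers, 3 of them above the filter, summed to 114 to 333, 440 to 2072 and 135 to 1466. S100a8 and S100a9 made up most of each neutrophil sum. The part of the macrophage and neutrophil markers in the aquaporin values was not tested.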

How the data were processed

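Liver RNA of 9 rats was labelled with biotin. The deposited intensity values, 1 linear signal per probe set and array, came from GCOS 1.2, per the submitters' processing notes. No scaling target is given in the sources used here. Arrays differed in scale, so 57 control probe sets were left out and log2 signals quantile-normalized, which removes any true difference in total RNA. Probe sets under the 40th percentile of mean log2 signal were not tested.

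All 9 arrays entered 1 fit in limma 3.58.1 (R 4.3.3), with a term per group, an intensity trend, two-sided tests and Benjamini-Hochberg adjustment over 18625 probe sets. The script was tested on simulated data. The 3 animals of a group were separate rats, and p-values measure the spread between their arrays. Members and lists were chosen with earlier results of these data known. Named were all members and other aquaporins, the 3 genes most like each member, and from each pathway list and comparison up to 4 genes past the threshold, or else the 2 of smallest p. A gene in a list was read by its brightest probe set. Marker lists are given by summed signal and counts.

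Alternatives were no normalization, median centring, scaling to a 2% trimmed mean, an offset of 1.08 signal units before log2, fits of only the groups compared, array weights, no filter, a filter at the 60th percentile, moderation without a trend, a replicate block, a Gapdh ratio term, and arrays left out singly or as the pairs control 2 with drug 3 and control 1 with drug 1. Deviations from group means of same-numbered arrays had correlations of -0.005 to 0.48, and those of differently numbered arrays -0.37 to 0.32. Among the arrays numbered 1 they were 0.20, 0.48 and 0.39. The labels do not say what a replicate number stands for, so the numbers were used only in the replicate block. A shared effect of the number was not tested further.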

Additional observations from a re-analysis of the deposited data

How the results depend on the processing

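The adjusted limma test called 0 probe sets in each comparison. Model against control had 1 without normalization, 4 with array weights, 3 with the replicate block, 1 without control 1 and drug 1 together, and 0 to 1 when single arrays were left out. Drug against model had 1 without control 1 and drug 1 together, 1 when only those groups were fitted, and 0 to 1 when single arrays were left out. No member was among them, and drug against control had 0 throughout. Unadjusted counts were 2245, 610 and 1345 in the order model against control, drug against model, drug against control, and 3633, 1082 and 2235 with the replicate block, which changed no member's call. The median of the 10 member probe sets, the 4 dim ones included, ranged over 22 alternatives. It ran from -1.03 to -0.20, -0.39 to 0.51, and -0.90 to -0.28 in that order. In drug against model, where it was 0.11, it was below 0 with array weights (-0.23), with the Gapdh term (-0.0252), without control 1 and drug 1 together (-0.20), without model 3 (-0.39) and without drug 1 (-0.21). In model against control it was -0.20 without model 3. Without normalization the median of all probe sets shifted to -0.40, 0.06 and -0.36, and with the trimmed mean to 0.16, -0.06 and 0.07. Several single genes turned in sign under some settings, and the cause was not tested. In drug against model, Aqp1 1369625_at was 0.0486 without normalization, 0.0072 with median centring, 0.24 without control 2 and drug 3, and -0.96 to 0.55 without single arrays. Aqp1 1387651_at was -0.63 with array weights, -0.17 with the Gapdh term, -0.35 without control 1 and drug 1, and -0.82 to 0.86 without single arrays. Aqp11 was -0.0621 without control 1 and drug 1, and -0.0626 to 0.89 without single arrays. Aqp7 was -0.0637 with the trimmed mean, -0.0072 with the offset, -0.28 with array weights, -0.0873 without control 2 and drug 3, and -0.31 to 0.54 without single arrays. Uox was -0.069 without control 1 and drug 1, and -0.0637 to 0.42 without single arrays. In drug against control, Aqp9 was -0.42 without normalization, -0.13 with median centring, -0.10 without control 1 and drug 1, and -0.19 to 0.55 without single arrays. Aqp12a was 0.14 with the trimmed mean, 0.005 with array weights, 0.0477 when control 2 and drug 3 were left out, 0.0749 without control 1 and drug 1, and -0.14 to 0.10 without single arrays. In model against control without normalization, Hsp90b1 was -0.26, Nr3c1 -0.13 and Pck1 -0.15. Precision is limited by 3 arrays a group, and the dim Aqp3 and Aqp4 probe sets give no comparison.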
